A study of Mus musculus with 18 samples.

Results

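A set of 634 RAD21 sites had a peak in the merged-read list of resting splenic B cells and in neither merged-read list of stimulated cells. RAD21 is the kleisin subunit of cohesin, and its binding was mapped by ChIP-seq in wild-type C57BL/6 mouse B cells at 0 h (resting) and after 48 h and 96 h of culture with LPS and IL-4. There were 3 replicates per time point, each made from the pooled cells of several young adult mice, and the 96 h cells were also enriched for IgG1-positive cells by negative selection, so that time in culture and this purification cannot be told apart. Beside the 9 replicate peak lists there was 1 list per time point from the merged reads, called pooled here. Peaks of the 3 pooled lists that shared at least 1 bp were merged, which gave 15705 sites, of which 5687 held a resting peak. The 634 sites with a resting peak alone, called resting-only, were 4.04% of all sites and 11.1% of the resting list. The presence or absence of pooled peaks chose these sites, so their presence, score and replicate support are descriptions and were not tested. The number depends on the rule that merges peaks and on the lists. One library stood apart: 48 h replicate 2 held 5254 peaks but had one at 8.29% of the other resting sites, where 48 h replicates 1 and 3 had one at 24.1% and 24.8%. With stimulated pooled peaks left out that rested on 48 h replicate 2 alone or 96 h replicate 3 alone, 1514 sites were resting-only, all 634 among them, and with a score minimum of 15.02 in every list 406 were, 93 of the 634 among them. There were no expression values with which to check the cell type by its markers, and a site without a called peak may still have held cohesin.

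Cohesin is a ring-shaped complex that holds sister chromatids together and forms chromatin loops in interphase. Most of its stable positions in mammalian genomes are places where the zinc finger protein CTCF is bound, and CTCF recognises a long asymmetric DNA motif whose orientation takes part in the choice of loop partners. A smaller part of cohesin sits at active promoters and enhancers bound by tissue-specific factors. Resting follicular B cells are small, non-dividing cells; LPS acts through Toll-like receptor signalling and, with IL-4, drives them to grow, divide and switch to IgG1.

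To show the sequence at these peaks, a 20-base motif was learned from sites with peaks in at least 6 of the 9 replicates, none of which was resting-only, on the even-numbered chromosomes. It had the form of the CTCF motif, NNNCCACNAGGGGGCGCNNN. Matches within 100 bp of the peak centre, which may reach past the called peak as that of Cbfa2t3 does, are given first for sites with peaks in 2 resting replicates, named by the nearest protein-coding start, and then for the 20 promoter sites within 1 kb of highest score. Positions are in mm9, the strand is that of the motif, and capitals mark bases equal to the consensus.
Arhgap8 chr15:84531013-84531032 (-): taaCCAgcAGGGGGCagcac
Gbp2 chr3:142309088-142309107 (-): atgCCtgtAGaGGGCagcag
Galnt10 chr11:57431253-57431272 (+): aagaCAgcAGGtGGCGCccc
St3gal6 chr16:58514798-58514817 (-): ctgCCtCcAGGGGGaGCtct
1600014C10Rik chr7:38967731-38967750 (+): ttgCCACcAGaGGGCGCtgc
Wdr18 chr10:79422808-79422827 (+): tggCCtCtAGGaGGCGCtat
Cdk14 chr5:5266673-5266692 (-): tctCCtgtAGGGGGCGCtaa
Cbfa2t3 chr8:125202687-125202706 (+): ctgCCggcAGGGGGCGCgct
These matches held between 8 and 12 of the consensus bases. They are the 4 matches of highest motif score in each set, except that the match of the Mbp site, with a motif score of 18.3, is not shown.

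The promoter peaks themselves differed in sequence. The stretches below are the longest part of each resting-only peak without an exon base, 5′ to 3′ on the gene's strand. Capitals mark the 20-base motif match in Wdr18, Scpep1 and Nfkb2, and in Ptprc, Bank1 and Gimap6, which lack the motif, the word GGAAGT or its reverse complement, the core of sites for ETS family factors. Gimap6 was chosen after its values were seen.
Wdr18 chr10:79422711-79422896 (+): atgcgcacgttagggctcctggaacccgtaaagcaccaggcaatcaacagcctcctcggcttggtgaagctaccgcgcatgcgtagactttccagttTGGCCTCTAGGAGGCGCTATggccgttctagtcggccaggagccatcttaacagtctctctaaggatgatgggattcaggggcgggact
Scpep1 chr11:88816780-88816918 (-): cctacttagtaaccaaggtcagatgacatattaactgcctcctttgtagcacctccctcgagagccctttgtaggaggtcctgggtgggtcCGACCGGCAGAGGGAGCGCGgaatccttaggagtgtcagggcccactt
Nfkb2 chr19:46378605-46378797 (+): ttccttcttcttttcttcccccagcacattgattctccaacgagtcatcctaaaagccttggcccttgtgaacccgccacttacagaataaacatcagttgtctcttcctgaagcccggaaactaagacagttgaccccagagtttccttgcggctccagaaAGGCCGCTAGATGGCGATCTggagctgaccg
Ptprc chr1:140071883-140071966 (-): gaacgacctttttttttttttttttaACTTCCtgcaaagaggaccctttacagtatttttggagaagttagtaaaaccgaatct
Bank1 chr3:135989031-135989180 (-): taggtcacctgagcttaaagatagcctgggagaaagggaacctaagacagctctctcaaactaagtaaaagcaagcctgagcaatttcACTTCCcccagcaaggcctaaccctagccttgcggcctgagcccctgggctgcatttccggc
Gimap6 chr6:48658225-48658302 (-): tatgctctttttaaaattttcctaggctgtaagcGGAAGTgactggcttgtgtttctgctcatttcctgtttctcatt
Wdr18 and Scpep1 were the highest-scoring promoter sites within 1 kb, while Ptprc, Bank1 and Nfkb2 are genes of B cell signalling.

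Resting-only sites had low peak scores. The score is the peak caller's own and was used for rank within a list. Across lists it was used only for the score minimum tried as an alternative. In the resting pooled list scores ran from 4.12 to 134.91, and those of resting-only sites from 4.12 to 36.72, with a median of 9.84 against 16.0 for the other 5053 resting sites. Their median percentile in the list was 21.6, compared with 34.0 for sites shared with 48 h alone, 41.9 for sites shared with 96 h alone and 70.6 for sites of all 3 lists. The list was cut into 5 bands of about equal size by score, from band 1, the lowest, to band 5. Of the sites of band 1 26.1% were resting-only (275 sites), and of those of band 5 0.693% (8 sites). Peaks were also narrower, with a median width of 171 bp against 260 bp.

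**Figure D1:**
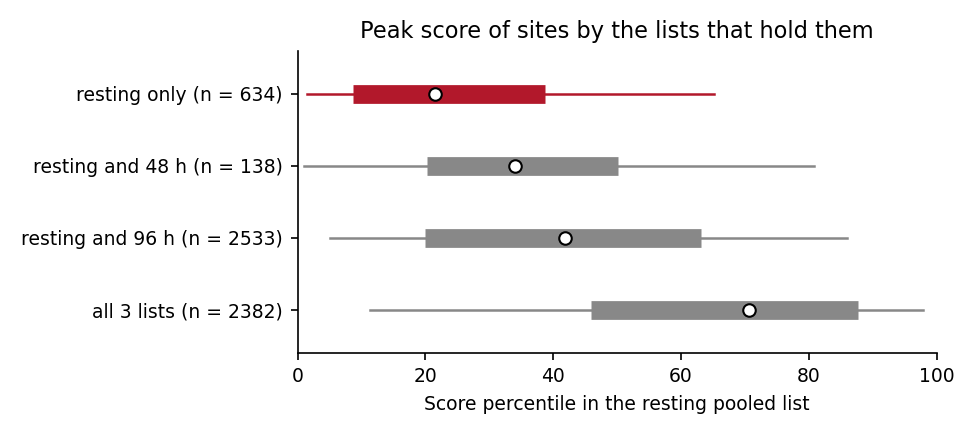
Score percentile in the resting pooled list (horizontal axis, percent of peaks with a lower score) for sites grouped by the pooled lists that hold them; circles are medians, thick bars span the 25th to 75th and thin lines the 5th to 95th percentile of sites. Resting-only sites lie lowest, with a median of 21.6, and sites of all 3 lists highest, with a median of 70.6.

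Support by single replicates was limited and uneven. A peak in at least 1 resting replicate was present at 277 of the 634 sites, or 43.7% (exact binomial 95% interval 39.8 to 47.7), where 68.9% of all sites of the resting list had one. Only 25 sites, 3.94%, had a peak in at least 2 resting replicates, against 31% of the list, and none in all 3, against 9.44%. The number of resting-only sites with a peak was 216 in resting replicate 3, 64 in replicate 1 and 22 in replicate 2. Their order was that of the lengths of the replicate lists, which held 3578, 2097 and 821 peaks. The counts were not in proportion to those lengths, and replicate 3 had the most for its length. Of its 216 sites, 193 had no peak in another resting replicate. The same held for 44 of the 64 sites in replicate 1 and 15 of the 22 in replicate 2. The share with any resting replicate peak was 13.2% without replicate 3. The remaining 357 sites were called only after the reads of the replicates had been merged. Intervals here hold counting error only, and the number of reads behind each peak was not known.

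In the stimulated replicates 37 resting-only sites (5.84%, interval 4.14 to 7.95) had a peak although the pooled lists had none, where 81% of all sites of the resting list had one. The 48 h replicates 1, 2 and 3 held peaks at 5, 5 and 6 of the sites, and the 96 h replicates at 0, 2 and 20. The 96 h replicate 3 list was the longest, with 8579 peaks, and without it the count fell to 18 sites. The site nearest Fos, an immediate early transcription factor gene, at chr12:86828726-86828917 had scores of 9.08 in resting replicate 1 and 8.14 in 48 h replicate 3, and no peak in the other replicates. This site was chosen for mention after its values were seen. A total of 251 sites had a peak in a resting replicate and in none of the stimulated ones.

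**Figure D2:**
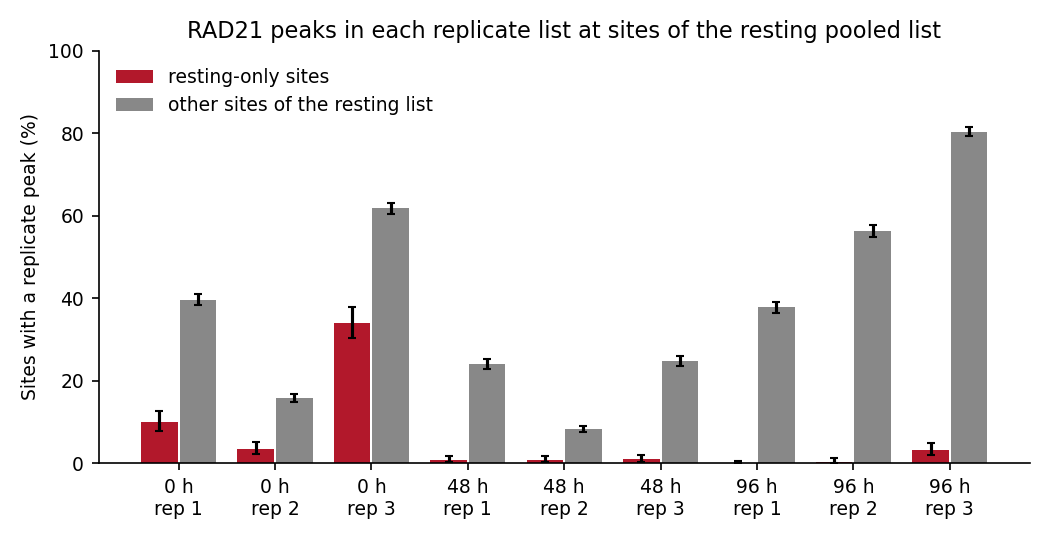
Percent of sites (vertical axis) with a peak in each of the 9 replicate lists (horizontal axis), for the 634 resting-only sites in red and the other 5053 sites of the resting pooled list in grey; error bars are exact binomial 95% intervals. Resting-only sites had peaks mostly in resting replicate 3 (34.1%) and hardly any in stimulated replicates.

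Few sites lay near the edge of the rule. The resting-only sites nearest to a stimulated pooled peak were chr9:3001174-3001335, nearest Gm10722, at 49 bp from a 48 h peak, and chr17:88512498-88512716, nearest Fbxo11, at 212 bp from a 96 h peak. Just outside the rule, resting sites at chr6:13899214-13899611 and chr7:125438870-125439065 shared 6 and 28 bp with a 48 h peak. The median distance from a resting-only site to the nearest stimulated peak was 29209 bp, and 25 sites lay within 1000 bp of one.

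The 25 sites with peaks in 2 resting replicates were the best supported. The highest-scoring of all resting-only sites was among them: chr15:11967120-11967364 lay between genes, 40504 bp from the start of Sub1, which encodes a transcriptional coactivator. It had a score of 36.72, percentile 92.1, with scores of 15.21 in resting replicate 1 and 17.18 in replicate 2 and no peak in the other 7 replicates, and its best motif score of 8.12 was under the threshold of 8.78. Among the 25 sites the next were nearest Fam71a (score 32.29, replicates 1 and 3), Mbp (28.97, replicates 1 and 3), the myelin basic protein gene, and Ccnj (27.85, replicates 1 and 3), a cyclin gene. Of the 25 sites, 16 were between genes, 6 in introns, 1 in a coding exon of Cntrob and 2 upstream of genes; 17 held a motif match, and 20 scored above the middle of the list.

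The introns were those nearest the starts of Chml, Arhgap8, Akap13, Pip4k2a, St3gal6 and Prps2. Pip4k2a encodes a phosphoinositide kinase. The sites between genes lay nearest Gm5879, Gbp2, an interferon-induced GTPase gene, Zfp541, Sipa1l2, Rpap3, Add3, Ptprj, a receptor phosphatase gene, Map3k1, a kinase gene, Galnt10, Mef2c, Ggta1 and Gm6026, besides Sub1, Fam71a, Mbp and Ccnj. The sites near Zfp541, Sipa1l2 and Galnt10 also had a peak in 48 h replicate 3, with scores of 5.94, 12.38 and 6.32. The upstream sites were those of Efcab9, shared with Stk10, a kinase gene of lymphocytes, and of Scpep1, a serine carboxypeptidase gene. The Efcab9 site at chr11:32430276-32430478 lay 1704 bp from a start and had scores of 10.19 and 11.04 in resting replicates 1 and 3. At Mef2c, a transcription factor gene used in B cell activation, the site was 437876 bp upstream, with a second resting-only site 104 bp away.

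Close to transcription starts, 57 resting-only sites had their centre within 1 kb upstream of a protein-coding start, 82 within 2 kb and 100 within 3 kb. These are 8.99% (6.88 to 11.5), 12.9% (10.4 to 15.8) and 15.8% (13.0 to 18.8) of the 634 sites, where the whole resting list had 6.51%, 9.9% and 12.7%. Sites shared with 96 h alone had 7.82%, 11.5% (10.3 to 12.8) and 14.7% (13.4 to 16.2), and their intervals overlapped those of resting-only sites at each distance. Sites within 1 kb on either side of a start made up 13.2% (10.7 to 16.1), against 7.78% (7.05 to 8.55) of the other resting sites and 9.87% (8.74 to 11.1) of those shared with 96 h alone, whose interval overlapped that of resting-only sites. In score band 1 this share was 14.9% for resting-only and 7.84% for other sites, in band 2 10.3% and 6.74%, in band 3 16.7% and 7.38%, and in band 4 10.0% and 9.26%. In band 5 it was 0 of 8 resting-only sites and 7.58% of the others. With exons placed ahead of the interval from 1 to 3 kb, the sites not within 1 kb upstream fell as follows: 210 were in introns, 300 between genes, 40 between 1 and 3 kb upstream, 11 in 3′UTRs, 10 in coding exons and 6 in 5′UTRs.

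**Figure D3:**
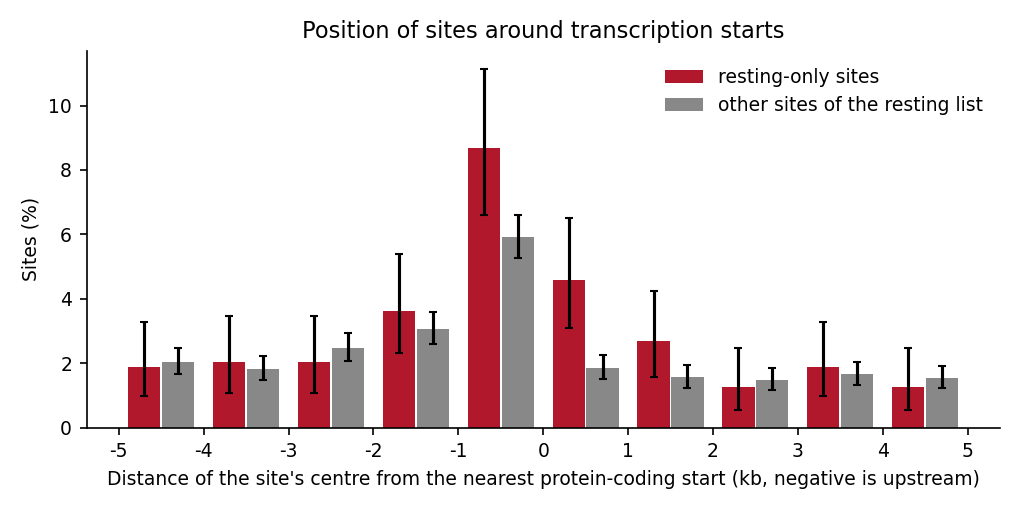
Percent of sites (vertical axis) by the distance of their centre from the nearest protein-coding start in bins of 1 kb (horizontal axis, kb, negative is upstream), for resting-only sites in red and other resting sites in grey; error bars are exact binomial 95% intervals. In the first 1 kb upstream lay 8.68% of resting-only and 5.92% of other sites, and in the first 1 kb downstream 4.57% and 1.86%.

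Whether resting-only sites lay at promoters more often than others was asked within each resting replicate, with the peaks at resting-only sites set against all other peaks of the same list. Within 1 kb upstream lay 9.38%, 9.09% and 7.87% of the peaks at resting-only sites in replicates 1, 2 and 3, and 6.10%, 6.51% and 6.31% of the other peaks. The mean difference was 2.47 percentage points ± 0.861 (SD, n = 3), higher in 3 of 3 replicates (exact two-sided sign-flip permutation test, p = 0.25, adjusted p = 0.5 over 4 tests). With 3 replicates 0.25 is the smallest p this test can give, and replicate 2 held only 22 such peaks, of which 2 were at promoters. Within 3 kb the replicates did not point one way: the shares were 15.6%, 9.09% and 16.2% against 12.5%, 13.4% and 12.5%, a mean difference of 0.847 points ± 4.47 (SD, n = 3; exact p = 1).

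**Figure D4:**
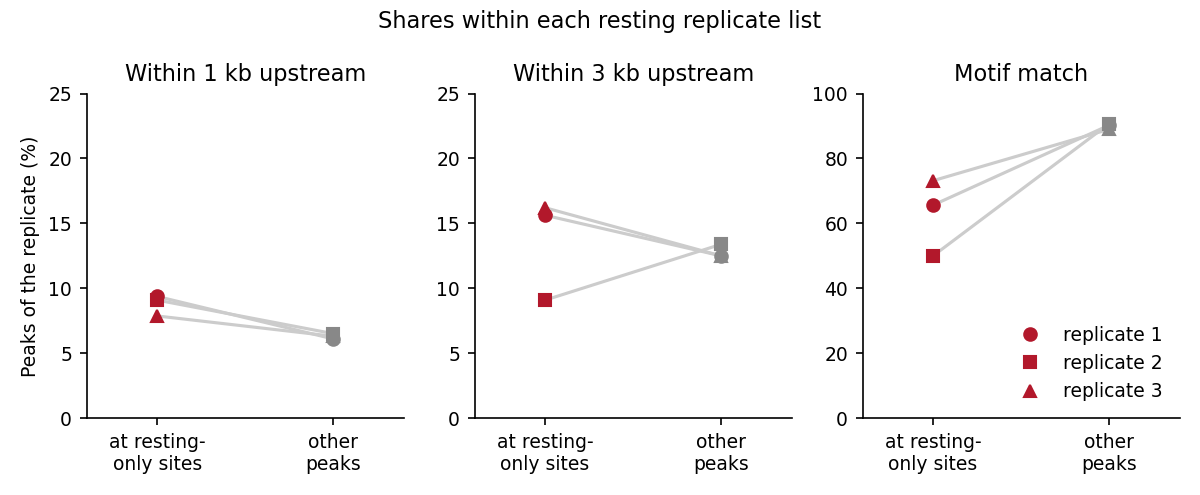
Percent of the peaks of each resting replicate (vertical axes) that lay within 1 kb upstream of a start, within 3 kb upstream of a start, or held a motif match, for peaks at resting-only sites (red) and other peaks (grey); symbols are replicates and lines join values of a replicate. The motif share was lower at resting-only sites in all 3 replicates, the 1 kb share higher in all 3, and the 3 kb share higher in 2.

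The 57 sites within 1 kb lay at 59 genes. Their median distance from a start was 258 bp, 25 of them were within 200 bp, and 4 had starts on both strands within 1 kb. A resting replicate peak was present at 24 of the 57 sites and at 45 of the 100 within 3 kb, where 43.7% of all resting-only sites had one. A stimulated replicate peak was present at 7 of the 100.

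The 20 promoter sites of highest score were at genes of varied function. At Wdr18, a component of a complex in ribosomal RNA processing, chr10:79422711-79422913 lay 85 bp upstream of the start and had a score of 22.03 (percentile 73.2) and of 14.96 in resting replicate 3, its only replicate peak. Scpep1 followed at chr11:88816708-88816918, 34 bp upstream, with 20.82 in the pooled list and 11.6 and 9.08 in resting replicates 1 and 3. Padi2, which encodes an enzyme that converts arginine to citrulline, scored 18.44, and Cdk17, a cyclin-dependent kinase gene, 17.28, each with a peak in resting replicate 3. At Ppap2b, a lipid phosphatase gene, the score was 16.14 and the replicate peak was in replicate 2. Cdk14, a further kinase gene, had a score of 15.26 and a peak of 9.08 in replicate 1. Thus 3 of these 6 scored in replicate 3 alone, and only Scpep1 in 2 replicates. The sites of 1600014C10Rik and Wdr26, with scores of 16.1 and 15.58, ranked above that of Cdk14. At both, replicate 3 was the only resting replicate with a peak.

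The others of the 20 included 1600014C10Rik, Wdr26, a gene of a ubiquitin ligase complex, Tcam1, D930015E06Rik and 9430023L20Rik. With them were Npc1, whose protein exports cholesterol from lysosomes, Psd4, an exchange factor gene for ARF6, and Rasl11a, a small GTPase gene. Their scores ran from 16.1 to 13.91. Ctsa, the gene of the lysosomal protease cathepsin A, Trip10, a CDC42-interacting protein gene, Serinc3, Klhl24, Ptprc and Cbfa2t3, a transcriptional corepressor gene, scored between 13.19 and 10.75. Of the 20 sites, 15 had a peak in a resting replicate, 11 of them in replicate 3, and 13 held a motif match. The 1600014C10Rik site also had a peak of 9.01 in 48 h replicate 3 and the Serinc3 site one of 8 in 96 h replicate 3. A 96 h pooled peak lay 441 bp from the Npc1 site, 807 bp from that of Trip10 and 1549 bp from that of Wdr18. The others of the 20 were 2717 bp (Padi2) or more from a stimulated pooled peak.

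Several promoter sites were at genes of B lymphocytes. At Ptprc, which encodes the phosphatase CD45 of all white blood cells, chr1:140071807-140071966 had its centre 5 bp upstream of a start, a score of 10.75 (percentile 26.9) and 9.41 in resting replicate 3. At Cxcr5, the receptor that brings B cells into follicles, chr9:44334504-44334761 was 129 bp upstream, with a score of 10.44 and 6.33 in resting replicate 1. The site of Vav1, an exchange factor gene in antigen receptor signalling, at chr17:57416328-57416519 was 2099 bp upstream with a score of 13.41 and no peak in a replicate. No replicate peak was found either at Nfkb2, the gene of the NF-kB subunit p52, 526 bp upstream at chr19:46378605-46378797, or at Bank1, a scaffold gene of the B cell receptor, 47 bp upstream at chr3:135988973-135989180. Their scores were 5.99 and 4.79, percentiles 1.73 and 0.316, so these calls were among the lowest of the list. The sites at Cxcr5, Ptprc and Bank1 lacked a motif match, and those at Vav1 and Nfkb2 held one. A 96 h pooled peak lay 1045 bp from the Bank1 site. The sites of Nfkb2, Cxcr5, Vav1 and Ptprc were 4849 bp (Nfkb2) or more from a stimulated pooled peak.

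Other promoter sites were chosen for mention after their values were seen. Egr1 and Egr3, immediate early transcription factor genes induced by antigen receptor and mitogen signals, had sites 1176 and 1471 bp upstream, with scores of 7.53 and 11.78, and Nab2, whose protein binds and restrains EGR factors, had one 258 bp upstream with a score of 8.44. Jund, an AP-1 gene, had a site 2225 bp upstream with a score of 5.17. None of these 4 sites had a peak in any replicate. Elf1, an ETS factor gene of lymphocytes, had a site 1517 bp upstream with a score of 16.14 and 8.15 in resting replicate 3. Gimap6, a lymphocyte GTPase gene, had one 8 bp upstream with a score of 8.68 and no replicate peak.

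Against lists of genes the promoter counts were small. Of 22225 protein-coding genes 747 (3.36%) had a resting site within 3 kb upstream and 105 (0.472%) a resting-only site. Of 21 genes of the B cell receptor and its coreceptors 4 had a resting site and 2, Bank1 and Vav1, a resting-only one. For homing and adhesion the counts were 7 and 1 of 20 genes, the latter Cxcr5, and for the LPS receptor and NF-kB 3 and 1 of 25, the latter Nfkb2. No resting-only promoter site was found for the 22 B cell transcription factors, of which 4 had a resting site, the 15 genes of plasma cells and secretion (1), the 22 of quiescence (0) and the 25 of the cell cycle and replication (2). There was likewise none for the 14 of IL-4 receptor signalling (4), the 24 of class switching and break repair (1), the 21 of antigen presentation (0) and the 16 of cohesin, its loader and CTCF (1). Among gene families, 1 of 58 Eif translation factor genes (Eif2b5), 1 of 50 proteasome genes (Psma1) and 3 of 354 solute carriers (Slc25a35, Slc35d2, Slc6a6) had one. None of 144 ribosomal protein, 77 mitochondrial ribosome, 367 Zfp, 42 complex I and 67 histone genes did. Each list held 0 to 3 such genes, and no list was tested against the 0.472% of all genes.

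Counting all positions, 28 resting-only sites lay in or nearest to 25 of the 220 listed genes of the annotation. Over all protein-coding genes the count was 627 of 22225, and the difference was not tested. The promoter sites of Vav1, Cxcr5, Nfkb2 and Bank1 were among the 28. The following, none within 3 kb upstream of a start, were chosen after their values were seen. Cd81, a tetraspanin gene, had an intronic site 410 bp downstream of its start with a score of 14.91 and 9.14 in resting replicate 3. In Blnk, an adaptor gene of the B cell receptor, an intronic site 31017 bp from the start scored 20.58 and 14.85 in resting replicate 3. Ccr7, a lymph node homing receptor gene, had sites 13048 and 16003 bp upstream, with scores of 12.22 and 10.28. The former had a peak of 8.19 in resting replicate 1 and the latter one of 10.53 in replicate 3, so the replicates supported different sites. Upstream of Foxp1, a transcription factor gene of resting lymphocytes, a site at 118599 bp scored 15.45 and 14.48 in resting replicate 3. None of these sites had a peak in a stimulated replicate. The highest-scoring of the 28, 34391 bp upstream of Ccne1, did have a peak in 1 stimulated replicate. Its score was 24.51, with 5.75 in resting replicate 3. Others of the 28, such as those nearest Prdm1, Rel and S1pr1, had no peak in any replicate.

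The CTCF-like motif was less frequent at resting-only sites than over the resting list. It was found within 100 bp of the centre at 424 of 634 sites, 66.9% (63.1 to 70.5), where 86% of all sites of the resting list had it. Sites shared with 96 h alone had it at 92.4% (91.3 to 93.4), sites of all 3 lists at 88.1% and the 138 sites shared with 48 h alone at 21.7% (15.2 to 29.6), so that resting-only sites lay between these groups. It was in 5.28% of windows 1 kb away from resting-only sites. That share was largely fixed, since the match threshold was set to be passed by 5% of such windows around resting sites. On the chromosomes that the motif was not learned on the shares were 66.1% at resting-only and 88.3% at other resting sites. Where a match was present its median score was 16.1, against 17.9 at other resting sites. On the chromosomes that the motif was not learned on these medians were 16.4 and 17.9. Within the resting replicates 65.6%, 50.0% and 73.1% of peaks at resting-only sites had a match, and 90.3%, 90.7% and 89.0% of other peaks. The mean difference was -27.1 points ± 12.6 (SD, n = 3), lower in 3 of 3 replicates (exact two-sided sign-flip permutation test, p = 0.25, the smallest possible, adjusted p = 0.5). This test used all chromosomes. The sites the motif was learned on could enter it only among the other peaks, so part of the difference may come from that choice.

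Peak score moved with the motif share. In score band 1 62.5% of resting-only and 87.8% of other sites had a match, in band 2 64.0% and 86.6%, and in band 3 75.0% and 87.0%. In band 4, with 40 resting-only sites, the shares were 87.5% and 88.6%, and in band 5, with 8, 75.0% and 91.5%. The intervals of both groups were apart in bands 1 to 3 and overlapped in bands 4 and 5, where resting-only sites were few. These intervals hold counting error over sites only, and sites of 1 list are not replicates. Sites with a resting replicate peak had a match in 71.1%.

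**Figure D5:**
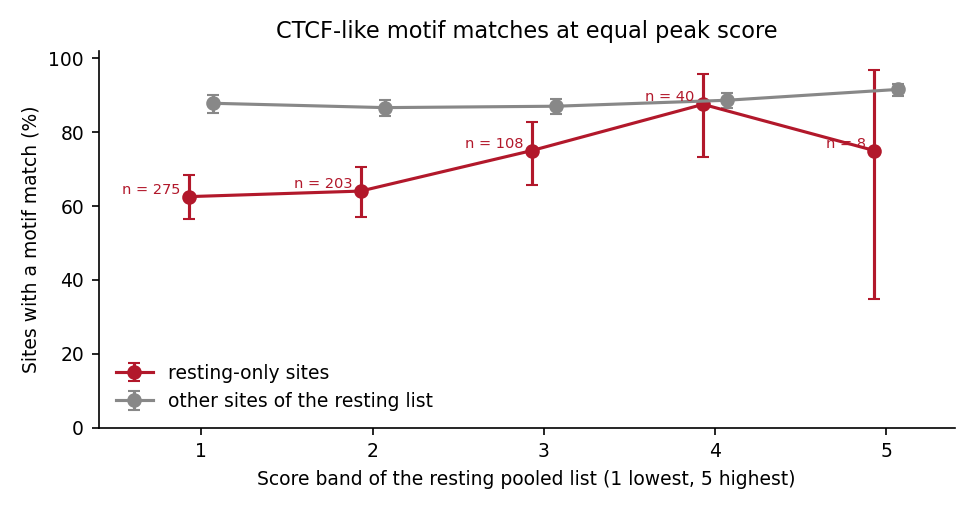
Percent of sites with a CTCF-like motif match (vertical axis) by score band of the resting pooled list (horizontal axis, 1 lowest), for resting-only sites in red, with their number, and other resting sites in grey; error bars are exact binomial 95% intervals. The share at resting-only sites was 62.5% in band 1 and 87.5% in band 4, and that at other sites between 86.6% and 91.5%.

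Around starts the motif was scarcer still. Of resting-only sites within 1 kb on either side of a start 48.8% (37.7 to 60.0) held it, and of those elsewhere 69.6% (65.6 to 73.5). For other resting sites the shares were 79.4% and 89.2%, and windows centred on protein-coding starts held it in 7.48%. The resting-only sites around starts had a median ratio of observed to expected CpG of 0.561, compared with 0.220 elsewhere. Other resting sites had nearly the same ratios, 0.566 around starts and 0.237 elsewhere. Of the 30 resting-only sites within 1 kb upstream that held a match, 23 had the motif on the strand of the gene and 7 on the other. Of 250 other resting sites of this kind, 129 (51.6%) had it on the gene's strand. This count was made after the sites had been seen and was not tested.

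Among the matches 1 sequence recurred. The most frequent 12-base run in the motif matches of resting-only sites was CCAGAAGAGGGC, found in 44 of 424 matches, 10.4% (7.64 to 13.7), and in 4.43% (3.85 to 5.08) of the matches of other resting sites. Since it was picked in the resting-only matches, its share there was partly set by that choice. Matches at sites of the stimulated lists without a resting peak held it in 6.54% (5.98 to 7.14). It occurs at 0.050% of all windows of 201 bp centred on protein-coding starts, of which only 7.48% hold a motif match. This share is therefore not on the same base as the shares of matches. In score band 1 the shares were 12.8% (8.19 to 18.7) and 5.42% (3.84 to 7.39), and in the other bands their intervals overlapped. A CTCF motif of this kind is known from B2 repeats, short interspersed elements that spread copies through rodent genomes; repeat annotation was not used here. Examples at promoters show the run with the flanks of its match, capitals again marking the consensus.
Elf1 chr14:79913938-79913957 (+): aagCCAgaAGaGGGCGttgg
Mettl13 chr1:164480151-164480170 (+): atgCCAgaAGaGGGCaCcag
Lsm2 chr17:35117733-35117752 (-): catCCAgaAGaGGGCatcag
Mettl13 encodes a methyltransferase and Lsm2 an RNA-binding protein of the spliceosome. Their sites lay 1526 and 1114 bp upstream, had scores of 10.75 and 8.76, and each had a peak in 1 resting replicate.

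Short words of other factors were counted at the 210 resting-only sites without the motif. Both strands of the 201 bp around each centre were searched for 6 short words, chosen after the sites had been seen: GGAAGT (ETS), TGTGGT (RUNX), ATGCAAAT (octamer, bound by OCT factors of B cells), TGAGTCA (AP-1), CACGTG (E-box) and GGGCGG (GC box). The ETS word was in 39 sites, 18.6% (13.6 to 24.5), against 9.52% (6.89 to 12.7) of windows 1 kb away and 9.91% (7.61 to 12.6) of other resting sites without the motif, of which those without a tandem repeat held it in 12.1% (9.18 to 15.7). Resting-only sites with the motif held it in 14.2% (60 of 424). The interval at motif-less resting-only sites overlapped that of sites with the motif and that of other motif-less sites without a tandem repeat. Windows centred on protein-coding starts held it in 17.3%, while at motif-less resting-only sites over 1 kb from a start it was in 17.4% (29 of 167). The RUNX word was in 21.9% (16.5 to 28.1), against 16.4% (13.0 to 20.3) 1 kb away, 10.4% (8.07 to 13.2) of other resting sites without the motif and 9.94% at starts, so that its interval overlapped that of the windows 1 kb away. At resting-only sites with the motif it was in 18.4% (14.8 to 22.4), an interval that overlapped too. The octamer was in 9 sites, 4.29% (1.98 to 7.98), against 0.714% (0.148 to 2.07) of windows 1 kb away, 0.684% (0.187 to 1.74) of other resting sites without the motif and 0.781% at starts. Resting-only sites with the motif held it in 2.36% (1.14 to 4.29). Other motif-less sites without a tandem repeat held it in 0.952% (0.260 to 2.42). The interval at the motif-less resting-only sites overlapped both of these and that of the windows 1 kb away. For AP-1 (3.33%), E-box (5.24%) and GC box (9.05%) the intervals overlapped those of windows 1 kb away. A word is no proof of binding, and overlaps between words were not removed.

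Tandem repeats were few at resting-only sites, as at sites shared with 96 h alone. Repeats counted here ran over 20 bases or more, with units of 1 to 4 bases. They were found at 15 sites, 2.37% (1.33 to 3.87), and at 5.42% (4.81 to 6.08) of other resting sites, with 2.45% (1.88 to 3.13) at sites shared with 96 h alone, 6.88% at sites of all 3 lists and 34.8% at sites shared with 48 h alone. In resting replicates 1, 2 and 3 the peaks at resting-only sites differed from the others by -3.36, 0.666 and -1.91 points, a mean of -1.53 ± 2.04 (SD, n = 3), so the replicates did not point one way (exact p = 0.5, adjusted p = 0.667, where 0.25 is the smallest possible).

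Resting-only sites were unevenly spread over chromosomes. On the autosomes between 5.72% (chromosome 4) and 15.4% (chromosome 19) of resting sites were resting-only, on chromosome X 30.4% (28 of 92) and on chromosome Y 75% (15 of 20). The 15 sites on Y lay between positions 1769154 and 2897647, had scores from 4.84 to 12.83 and held no motif match, and 8 had a resting replicate peak. On X 13 of the 28 sites lay between 120 and 124 Mb, near genes such as Gm17577 and Vmn2r121, with no motif match, where only 1 other resting site was found. These stretches of X and Y hold many near-identical gene copies, so the position of reads there is uncertain, and the part of this in these sites was not tested. Without X and Y the motif share of resting-only sites was 69.9% (413 of 591) and the share within 1 kb upstream 9.48%.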

How the data were processed

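RAD21 ChIP-seq peaks of resting, 48 h and 96 h B cells were used, as 12 lists: 9 of replicates and 3 of the merged reads of a time point. Per the labels and the paper's methods the authors aligned reads to mm9 with Bowtie2 and kept an equal number of unique positions per set. They then ran MACS 2 with input as control and the same false discovery rate throughout. The deposited value of each peak is a score of the peak caller whose statistic is not named; it carries no counts, so reads per peak are not known. Input libraries were not analysed here.

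Peaks sharing 1 bp were merged with Python 3.11.15, numpy 2.4.6, scipy 1.17.1 and pysam 0.24.0; plots were drawn with matplotlib 3.10.9. A replicate peak belonged to a site when it shared 1 bp with it. Starts and features came from GENCODE M1 on mm9, and a site was placed by its centre. The motif was learned on 410 of 936 sites on even-numbered autosomes, and a match was a log2 odds score passed by 5% of windows 1 kb away. Promoter, motif and repeat shares were compared within each resting replicate by an exact two-sided sign-flip test of 3 differences, with Benjamini-Hochberg adjustment over 4 tests and a threshold of 0.05. Scripts were tested on simulated data. Intervals are exact binomial 95% intervals (Clopper-Pearson). Nothing in the labels ties same-numbered replicates of different time points together.

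Genes are named at sites with peaks in 2 resting replicates, at the 20 promoter sites within 1 kb of highest score, at promoter sites of listed genes, at the sites nearest the rule's edge and at the highest score. The members and lists were chosen with earlier results of these data known, and other genes are said to be chosen later. Alternatives were tried for score minimum, list length, overlap, gap, support, promoter interval, motif, repeat and replicates.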

Additional observations from a re-analysis of the deposited data

How the results depend on the processing

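Of 103 alternative values over 12 results, 69 kept the direction and side of the threshold or lay inside the interval of the value reported, 32 moved and 2 turned. In the 4 within-replicate tests the smallest possible p with 3 replicates was 0.25, so their side of the threshold of 0.05 could not change. For these tests only the direction could turn. With a score minimum of 15.02 in all lists the sites numbered 406, of which 93 were among the 634, and 18.97% lay within 3 kb upstream, 88.4% and 56.9% had a resting and a stimulated replicate peak, 86.0% had the motif and the median percentile was 27.2. With each list held to its best 5579 peaks the number was 1684 (592 of the 634 among them), the replicate shares 54.6% and 43.3%, the motif share 82.8% and the median percentile 28.8. Without stimulated peaks of 48 h replicate 2 alone or 96 h replicate 3 alone it was 1514 (all 634 among them), with 51.9%, 60.6%, 75.2% and 30.2 in the same order and repeats at 6.14%. An overlap of 50% of both peaks gave stimulated support of 16.6% and repeats of 4.30%. Of the 277 sites with a resting replicate peak 9.39% had a stimulated one and 71.1% the motif, with a median percentile of 35.4. All transcripts gave a 3 kb share of 20.2%, either side of the start gave 22.9% within 3 kb and 13.2% within 1 kb. A motif threshold passed by 1% of windows gave 35.5%, a motif within 50 bp 50.3%, and repeats of 30 bases 0.631%. The causes of these moves were not tested, beside what each setting removes.

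Leaving out 1 replicate gave resting support from 13.2% (without replicate 3) to 41.3%, and stimulated support from 2.84% (without 96 h replicate 3) to 5.84%. The within-replicate difference for 3 kb turned to -0.295 points without resting replicate 1 and to -0.585 without replicate 3, and was 3.42 without replicate 2; for 1 kb it was 2.07 to 2.93 points, for the motif -32.7 to -20.2 and for repeats -2.63 to -0.622. Leaving out chromosomes X and Y, or sites with a stimulated replicate peak, was chosen after seeing the data and moved none of the 6 values recomputed out of its interval. No paired analysis was possible because no value was tested between time points; the tests inside the resting group took each replicate as its own block.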
